A study of Mus musculus with 3 samples.

Results

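Transcripts of the pathway that links growth factor and nutrient signals to cell growth were described in mouse haematopoietic stem cells. The genes are those of the PI3K, AKT, TSC, mTOR, LKB1-AMPK and FOXO proteins. They were taken from a fixed list of 38 genes, grouped here by their known roles. The list was drawn up with earlier results of these data known, although its rule uses no measured level. Of these, 37 had a probe set assigned to that gene alone, out of 19938 genes measured in this way. Rps6kb1, which encodes S6 kinase 1, had none and is not analysed here.

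The cells were wild-type C57Bl/6 bone marrow cells from mice 6 to 10 weeks of age, sorted for c-Kit, Sca-1 and CD150 and against lineage markers, CD48 and CD41. This gate, KLS SLAM, is widely used to enrich stem cells that can repopulate the marrow. Each of 3 single-colour arrays, numbered as in the sample labels, was hybridised with amplified RNA, and all 3 belong to 1 group. No treatment, mutant or second cell type was analysed here, so the data describe the level of each gene and its spread between arrays. The labels do not say how many animals gave each sample or whether the samples came from separate animals, so the p-values given here measure only the spread between these arrays.

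Class I PI3K enzymes phosphorylate a membrane lipid after cytokine receptors such as c-Kit are engaged, and the product recruits PDK1 and AKT. Active AKT inhibits the TSC complex, which releases Rheb to activate mTOR complex 1, and it also drives FOXO transcription factors out of the nucleus. AMPK, switched on by LKB1 when energy is low, opposes mTOR complex 1. In blood-forming stem cells this pathway is known for its part in the choice between quiescence and growth: loss of FOXO factors, of Tsc1 or of Lkb1 is known to exhaust the stem cell pool in mice.

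Levels are log2 of the deposited intensities. A gene was called above the background range when it exceeded, on each of the 3 arrays, the 95th percentile of 1233 olfactory, vomeronasal and taste receptor genes, families that marrow cells should not use. On arrays 1, 2 and 3 that limit was 6.29, 5.98 and 5.77. Median intensities were 56.7 to 60.4 per array, and the number of arrays limits the precision. Probe sets bind with different affinity, so the level of one gene is not set against that of another, and a gene below the limit is not shown to be silent. Of the genes of the gate, Kit and Slamf1 were above the range, and Ly6a, which encodes Sca-1, is not analysed here. Of 6 measured stem cell markers 5 were above it, as were 7 of 8 neutrophil markers, although mature lineages had been sorted out. For erythroid cells 1 of 4 markers was above it, for B cells 1 of 4, for macrophages and dendritic cells 1 of 4 and for T and NK cells 0 of 5. It was 3 of 4 for megakaryocytes and platelets, 1 of 4 for mast cells and eosinophils and 2 of 4 for endothelium and stroma. Over all genes 36.8% were above the range, and the counts of genes above the range given here stand beside that share. With so few markers, 1 of 4 or 2 of 4 shows neither absence nor presence of a cell type. Of the genes for markers sorted out, and of Ptprc, 3 of 8 were above it: Itga2b (CD41), Ly6g and Ptprc. Cd48 was at 4.61, 5.62 and 6.14 on arrays 1, 2 and 3 and passed the limit on array 3 alone. Itgam passed on arrays 2 and 3 and Cd3e on arrays 1 and 3, while Cd4 and Cd8a missed it on each array. Ptprc encodes all forms of CD45, which stem cells carry too.

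The arrays also differed in genes of the sex chromosomes, and the labels give no sex. Xist, the RNA that coats the inactive X chromosome, was at 4.64, 9.99 and 4.95 on arrays 1, 2 and 3. The Y-linked Eif2s3y was at 7.38, 5.47 and 8.65 on arrays 1, 2 and 3, Kdm5d at 7.15, 6.05 and 7.03, and Uty at 7.04, 4.99 and 6.70. Array 2 was thus high for Xist and lowest for all 3 Y-linked genes, and these genes were looked up after the spread of all genes had been seen.

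Most genes of the pathway were above the background range. This held for 27 of the 37 measured genes (73.0%), beside 36.8% of all genes. Another 6 were above the limit on 1 or 2 arrays, and 4 were below it on every array, beside 42% of all genes, namely Pik3r3, Phlpp1, Prkaa2 and Foxo4. By single arrays, 27 of the 37 passed on array 1, 30 on array 2 and 32 on array 3, beside 39.3%, 49.1% and 55.3% of all genes. The median over the 37 genes of the mean level was 6.70 log2, and it was 5.96 over all genes. With the limit at the 99th percentile of the receptor genes, 11 of the 37 (29.7%) and 17.4% of all genes were above it. Of the 27 genes, 5 cleared the limit by under 0.2 log2 on at least 1 array: Prkaa1, Prkab1, Akt1, Mtor and Tsc2.

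**Figure D1:**
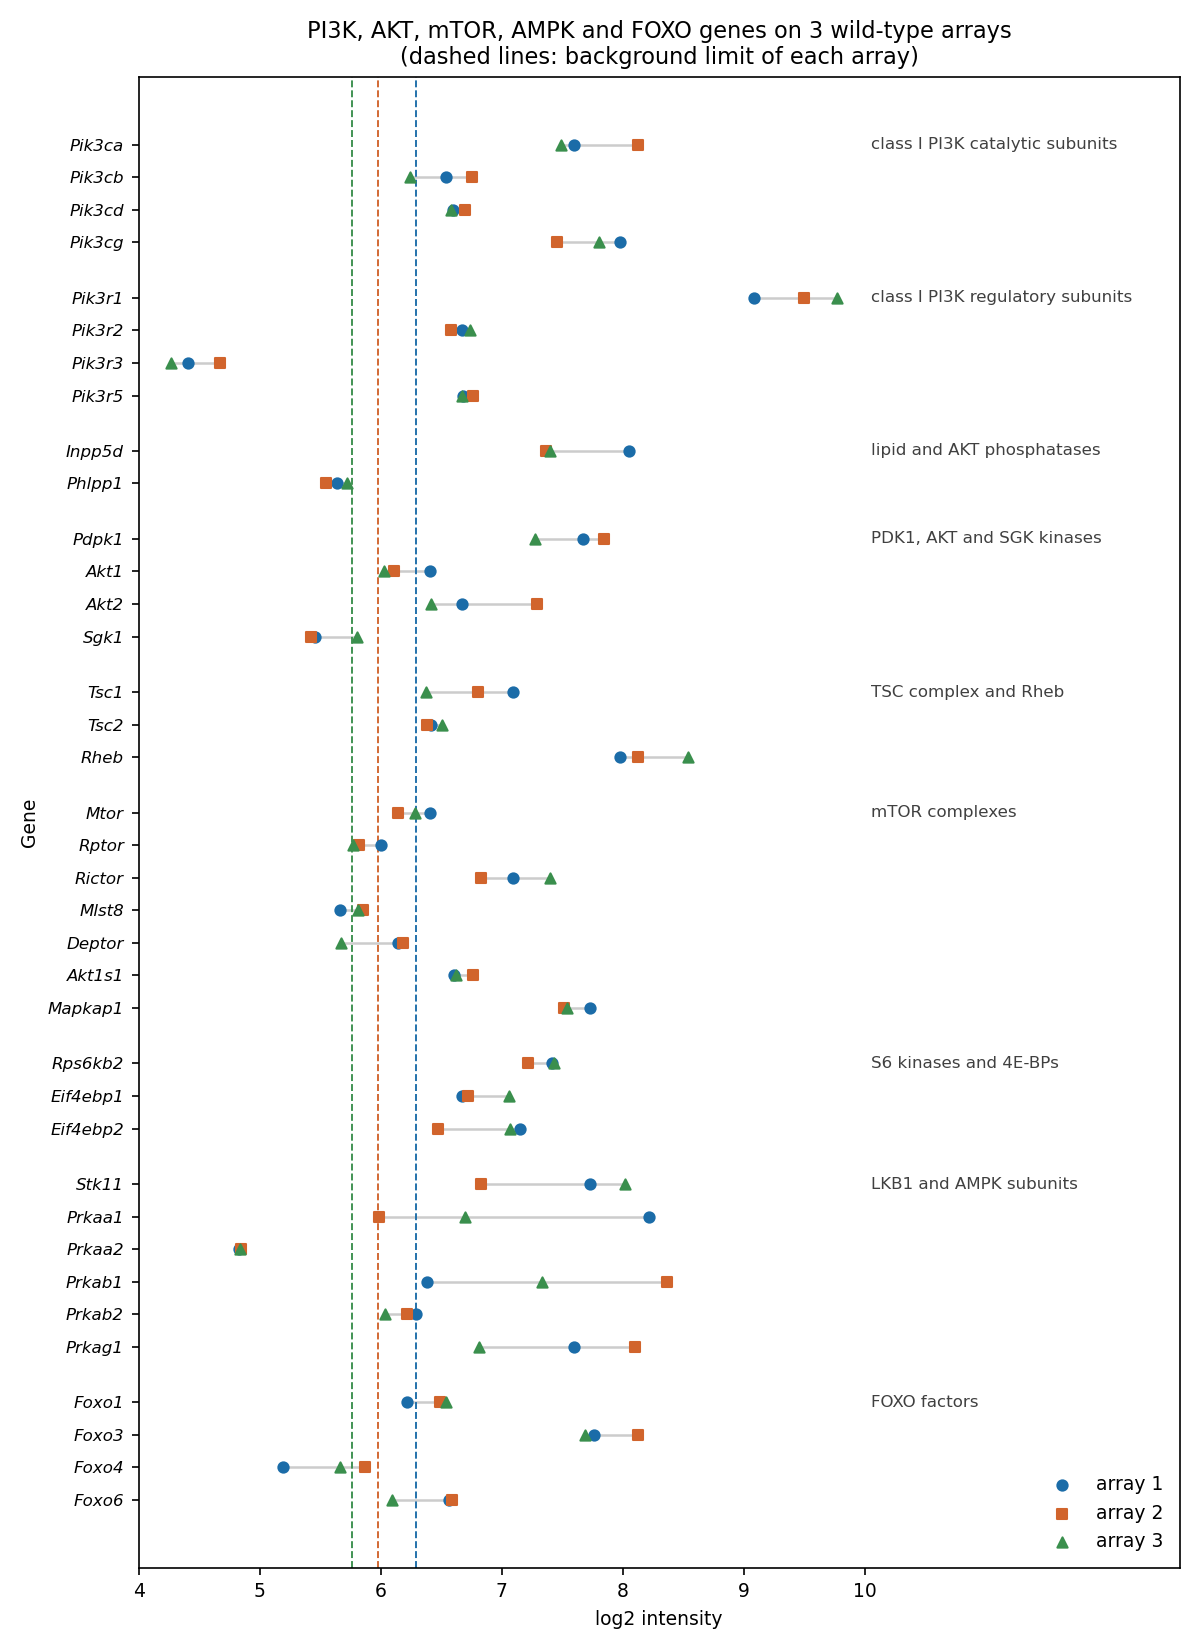
Each row is 1 gene, grouped by role, and each symbol is its log2 intensity on 1 of the 3 arrays, joined by a grey line; dashed lines are the background limits of 6.29, 5.98 and 5.77 in the colours of arrays 1, 2 and 3. Most rows lie to the right of all limits, Pik3r3 and Prkaa2 lie well to the left, and Prkaa1 and Prkab1 have the widest spread.

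All 4 genes of the class I PI3K catalytic subunits were above the background range. Pik3ca, which encodes the widely expressed p110 alpha, was at 7.60, 8.12 and 7.49 log2 on arrays 1, 2 and 3 (7.74 ± 0.34, SD, n = 3). The gene of p110 beta, Pik3cb, was at 6.54, 6.75 and 6.25 on the same arrays. Array 2 gave the highest value of both and array 3 the lowest. Of the subunits restricted largely to blood cells, Pik3cd (p110 delta) was nearly level at 6.59, 6.69 and 6.58. Pik3cg (p110 gamma, which answers G protein-coupled receptors such as chemokine receptors) was at 7.98, 7.45 and 7.81. It thus had its lowest value on array 2, opposite to the other 3.

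Of the regulatory subunit genes 3 of 4 were above the range. Pik3r1, which encodes p85 alpha and its shorter forms that hold and stabilise the catalytic subunit, was at 9.09, 9.50 and 9.77 on arrays 1, 2 and 3 (9.45 ± 0.34, SD, n = 3). Pik3r2 (p85 beta) gave 6.67, 6.58 and 6.74, and Pik3r5 (p101, the partner of p110 gamma) gave 6.68, 6.76 and 6.67. These were among the steadiest genes of the set, with SDs of 0.08 and 0.05. Pik3r3, the gene of p55 gamma, was below the limit on every array at 4.40, 4.67 and 4.27. The gap was at least 1.30 log2, beside an SD of 0.21.

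The phosphatase genes lay on opposite sides of the limit. Inpp5d encodes SHIP1, the blood cell enzyme that removes a phosphate from the PI3K product, and was at 8.05, 7.36 and 7.40 on arrays 1, 2 and 3. Array 1 was the high one, by 1.61-fold over the lowest. Phlpp1, which encodes a phosphatase of AKT, was at 5.64, 5.55 and 5.72 and missed the limit on every array, on array 3 by only 0.05. In the list of other lipid and AKT phosphatases 8 of 11 measured genes (72.7%) were above the range, beside 36.8% of all genes. Among the 8 were Ppp2ca, Ppp2cb, Ppp2r1a, Ppp2r2a and Ppp2r5c, genes of PP2A, a phosphatase not specific to AKT. The 3 that were not on all arrays were Inpp4b at 5.78 ± 0.20, Inpp5e at 5.92 ± 0.38 and Phlpp2 at 6.10 ± 0.16 (SD, n = 3).

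Downstream of the lipid, the genes of PDK1 and both measured AKT kinases were above the range. Pdpk1, which encodes PDK1, the kinase that phosphorylates AKT in its activation loop, was at 7.67, 7.84 and 7.28 on arrays 1, 2 and 3. Akt1 was at 6.40, 6.11 and 6.03 (6.18 ± 0.20, SD, n = 3) and cleared the limit by 0.11, 0.14 and 0.26. Akt2 averaged 6.67, 7.29 and 6.42 over 2 probe sets. Both of its probe sets were highest on array 2 and lowest on array 3, but they differed in level. One was at 7.09, 7.56 and 6.74 and the other at 6.25, 7.02 and 6.09, so that the dimmer one missed the limit on array 1. Sgk1, the gene of a related kinase that also phosphorylates FOXO factors, was at 5.45, 5.42 and 5.80, and passed on array 3 alone by 0.04. Of the other AKT and SGK kinases and AKT substrates 7 of 12 (58.3%) were above the range, beside 36.8% of all genes. Sgk2 at 4.96 ± 0.22, Bad at 6.11 ± 0.32, Tbc1d4 at 6.00 ± 0.09, Trib2 at 6.53 ± 0.27 and Tcl1 at 4.25 ± 0.38 (SD, n = 3) were not on all arrays.

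All 3 genes at the TSC step were above the range. Tsc1 (hamartin) was at 7.10, 6.80 and 6.38 on arrays 1, 2 and 3, and its partner Tsc2 (tuberin, the subunit that switches Rheb off) was at 6.41, 6.38 and 6.50. Tsc1 was highest on array 1 by 1.65-fold over array 3, while Tsc2 had an SD of 0.06. Rheb, the small GTPase that activates mTOR complex 1, was at 7.97, 8.13 and 8.54 (8.21 ± 0.29, SD, n = 3), well clear of the limits.

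The genes of the mTOR complexes were split. Mtor itself, the kinase shared by complexes 1 and 2, was at 6.41, 6.14 and 6.29 on arrays 1, 2 and 3 and cleared the limit by 0.11, 0.17 and 0.52. Of the subunits of complex 2, Rictor, its defining scaffold, was at 7.10, 6.83 and 7.40, and Mapkap1, which encodes SIN1, was at 7.73, 7.51 and 7.54. Both were above the range on every array. Rptor, which encodes raptor, the scaffold of complex 1 that binds its substrates, was at 6.00, 5.82 and 5.77 (5.86 ± 0.12, SD, n = 3). It passed on array 3 alone, by under 0.01. Akt1s1, the gene of the raptor-bound inhibitor PRAS40, was above the range at 6.60, 6.76 and 6.63. Mlst8, a subunit of both complexes, was at 5.67, 5.85 and 5.82 and passed on array 3 alone. Deptor, an inhibitor of both, was at 6.14, 6.18 and 5.67 and passed on array 2 alone. Since a raptor and a rictor probe set differ in affinity, these calls give no ratio of complex 1 to complex 2.

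Of the direct targets of mTOR complex 1, all 3 measured genes were above the range. Rps6kb2, which encodes S6 kinase 2, was at 7.41, 7.22 and 7.43 on arrays 1, 2 and 3. The genes of the translation repressors 4E-BP1 and 4E-BP2, which mTOR complex 1 switches off, were also above it. Eif4ebp1 was at 6.67, 6.72 and 7.06, with array 3 high, and Eif4ebp2 at 7.15, 6.47 and 7.07, with array 2 low. In the list of further mTOR partners and outputs 13 of 17 measured genes (76.5%) were above the range, beside 36.8% of all genes. The 4 that were not were Prr5 at 5.98 ± 0.14, Prr5l at 4.44 ± 0.26, Telo2 at 6.06 ± 0.19 and Tfeb at 5.49 ± 0.05 (SD, n = 3). Prr5 and Prr5l encode partners of complex 2, Telo2 helps to assemble mTOR, and TFEB is the lysosomal transcription factor that mTOR holds in the cytoplasm.

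The genes of LKB1 and of AMPK, a trimer of a catalytic alpha, a scaffold beta and a nucleotide-binding gamma subunit, had the widest spread between arrays. Prkaa1 (alpha 1) was at 8.21, 5.99 and 6.70 on arrays 1, 2 and 3 (6.97 ± 1.14, SD, n = 3). The highest was 4.67-fold above the lowest, and on array 2 the gene cleared the limit by only 0.01. Prkab1 (beta 1) was at 6.38, 8.36 and 7.33 (7.36 ± 0.99, SD, n = 3), a span of 3.94-fold. It ran opposite to Prkaa1, lowest on array 1 where Prkaa1 was highest, and highest on array 2 where Prkaa1 was lowest. Prkag1 (gamma 1) was at 7.59, 8.10 and 6.81, a span of 2.44-fold with array 3 low. Stk11, which encodes LKB1, the kinase that activates AMPK, was at 7.73, 6.83 and 8.01, a span of 2.27-fold with array 2 low.

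The other AMPK genes of the set, Prkaa2 and Prkab2, varied little. Both lay below or near the limit, where a small spread says little about the transcript. Prkaa2 (alpha 2, known mainly from muscle and liver) was below the limit on every array at 4.83, 4.85 and 4.84, and Prkab2 (beta 2) was at 6.29, 6.22 and 6.04. Prkab2 missed the limit on array 1 by under 0.01 and passed on the other arrays. Thus 4 of the 6 genes of LKB1 and AMPK were above the range on all arrays.

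**Figure D2:**
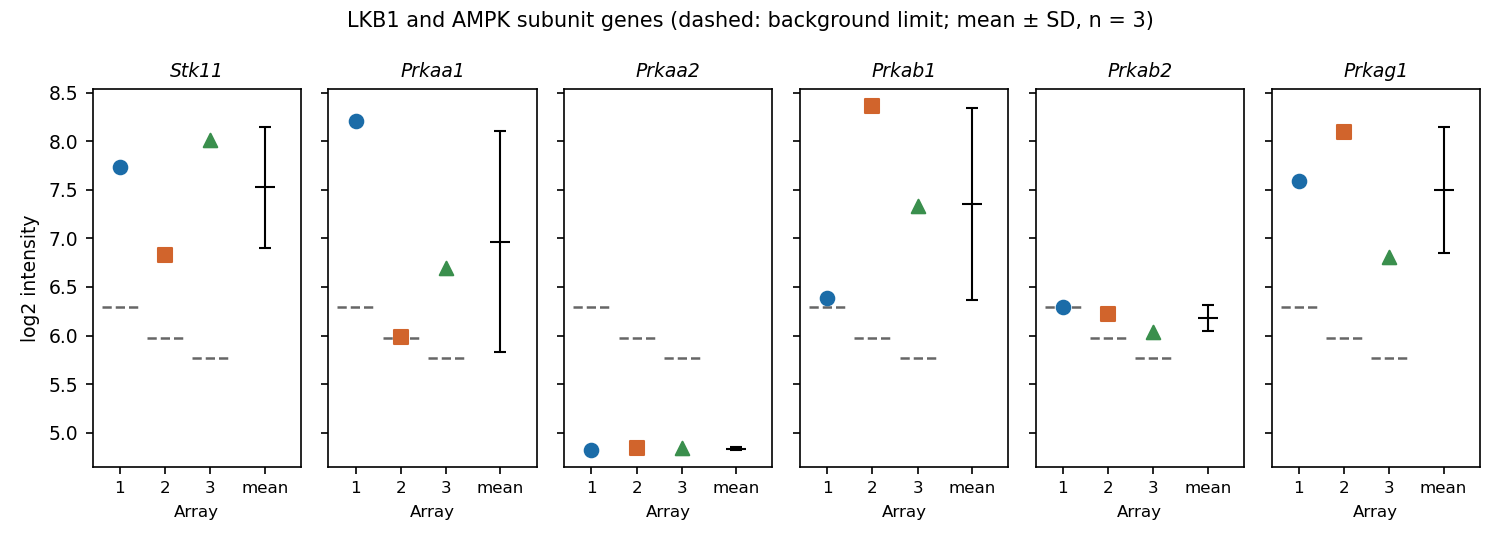
Log2 intensity of the LKB1 gene Stk11 and 5 AMPK subunit genes on arrays 1, 2 and 3, with the mean ± SD (n = 3) at the right of each panel and the background limit of each array as a dashed line. Prkaa1 falls from 8.21 on array 1 to 5.99 on array 2, where Prkab1 has its highest value of 8.36, while Prkaa2 stays between 4.83 and 4.85.

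None of the pathway genes passed the test of variation between arrays. The variance of each gene was set against the trend of all genes at its level (limma, one-sided F test, Benjamini-Hochberg over 19938 genes), and 0 of the 37 were called, beside 0% of all genes. At an unadjusted p under 0.05 there were 2 of the 37 (5.41%), Prkaa1 and Prkab1, beside 5.1% of all genes, so the share is that of the background. The SD of Prkaa1 was 3.83 times the trend (limma, adjusted p = 0.894) and that of Prkab1 3.00 times (limma, adjusted p = 0.955). For Prkag1 and Stk11 the ratios were 1.92 and 1.82, with adjusted p of 0.977 and 0.983 in limma. The highest and lowest arrays lay over 1 log2 apart for 4 of the 37 genes (10.8%), beside 10.5% of all genes, and these were Prkaa1, Prkab1, Prkag1 and Stk11. On simulated arrays, where both sizes were drawn in 1 run, the test called 33% of the genes whose SD was set to 10 times the trend and 91% at 40 times, ratios larger than that of any member.

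Without array 3, Prkaa1 reached 5.05 times the trend (limma, adjusted p = 0.651). Without array 1 it was at 2.02 times and Prkab1 at 2.03 times. Prkag1 fell to 1.04 times the trend without array 3 and Stk11 to 0.56 times without array 2. Without array 1 these 2 genes were at 2.60 and 2.40 times. In each fall the array left out held the highest or lowest value of the gene, so a lower ratio follows from that choice. Other measures shared a highest or lowest array with these genes, which happens readily with 3 arrays. The mean of the 8 neutrophil markers was lowest on array 1, as Prkab1 was, at 8.94, 9.72 and 9.52 on arrays 1, 2 and 3. Of the 8, 7 were lowest on array 1, while Mpo was highest there at 8.29, 7.53 and 7.88. Cd48, a gene for a marker sorted out, was also lowest on array 1, at 4.61, 5.62 and 6.14. Its SD was 3.65 times the trend (limma, adjusted p = 0.909). Of the 8 measured genes for markers sorted out, with Ptprc counted, 3 were lowest on array 1 and 5 on array 3. The Xist and Y-linked values set array 2 apart, where Stk11 and Prkaa1 were lowest and Prkab1 and Prkag1 highest. The eosinophil gene Prg2 was highest on array 1, as Prkaa1 was, at 8.08, 6.32 and 5.96, while Mcpt8 of the same list of 4 ran the other way at 5.83, 6.66 and 7.22, and Cpa3 and Ms4a2 missed the limit on each array. The mean of those 4 genes was 5.69, 5.46 and 5.48. The part of these in the spread was not tested, and with 1 array of its kind the sex-linked difference and array 2 cannot be told apart.

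**Figure D3:**
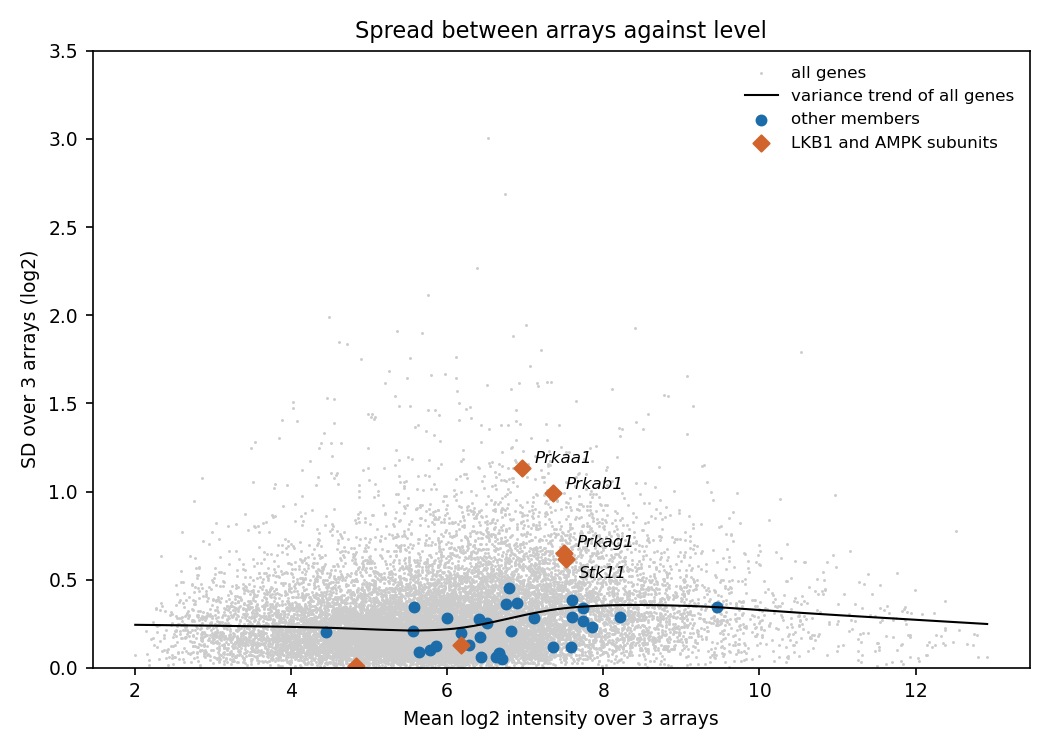
SD over the 3 arrays against mean log2 intensity for all 19938 genes (grey), with the variance trend (black line), the LKB1 and AMPK genes (orange diamonds) and the other members (blue circles). Prkaa1 and Prkab1 lie at SDs of 1.14 and 0.99, within the upper part of the grey cloud, and most other members lie near or below the trend.

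Further genes of the LKB1-AMPK branch were described from a list of 15 measured genes. Of these, 9 (60%) were above the range on all arrays, beside 36.8% of all genes. Strada, the pseudokinase partner that activates LKB1, was at 6.76, 6.54 and 6.46 on arrays 1, 2 and 3. Its paralogue Stradb was at 6.04, 5.56 and 6.47, and passed on array 3 alone. Cab39, which encodes the scaffold MO25 of the LKB1 complex, averaged 5.84, 6.21 and 6.15 over its probe sets, and Cab39l, its paralogue, was at 6.01, 5.16 and 6.66. Cab39l had the widest spread of the list (limma, adjusted p = 0.920), with array 2 low as for Stk11. It passed the limit on array 3 alone, so its values on arrays 1 and 2 lay within the background range. Cab39l was the single gene of 131 (0.76%) in all the other pathway lists with an unadjusted p under 0.05 in limma. The share of all genes was 5.1%, so such a gene does not stand out from the background.

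Over the 37 genes together no array stood apart by more than 0.04 log2. Their median deviation from the gene mean, in log2, was 0.00, 0.04 and -0.04 on arrays 1, 2 and 3, and over all genes it was -0.01, 0.03 and -0.03. Among genes of like level the signs differed: for mean levels of 7 to 8 the 11 members lay at 0.07, -0.08 and -0.05, and all 2615 genes at -0.06, -0.04 and 0.10. For levels of 5 to 6 the 6 members lay at -0.05, 0.02 and 0.06, and all 5827 genes at 0.01, 0.04 and -0.05. For levels of 6 to 7 the 16 members lay at 0.02, 0.04 and -0.04, and all 5406 genes at 0.01, -0.01 and -0.01. These differences were not tested. The median SD was 0.23 for the 37 genes and 0.22 for all genes. The highest value fell on array 2 for 16 of the 37 (43.2%) and for 38.6% of all genes.

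The FOXO factors, the transcription factors at the end of the pathway, were above the range for 2 of 4 genes. Foxo3, the member most often tied to stem cell quiescence, was at 7.76, 8.12 and 7.68 on arrays 1, 2 and 3 (7.86 ± 0.23, SD, n = 3). Foxo1 was at 6.22, 6.49 and 6.54, and missed the limit on array 1 alone, by 0.07. Foxo4 was below it on every array at 5.19, 5.87 and 5.66, by 0.11 on both array 2 and array 3. Foxo6, known mainly from the brain, was at 6.56, 6.59 and 6.09 (6.41 ± 0.28, SD, n = 3) and above the range by 0.27 to 0.61. The lowest value fell on array 1 for Foxo1 and Foxo4 and on array 3 for Foxo3 and Foxo6, and none passed the variance test (limma, smallest adjusted p = 0.994).

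Of the genes known as FOXO targets in one tissue or another, 13 of 25 measured (52%) were above the range, beside 36.8% of all genes. Cdkn1b, which encodes the cell cycle inhibitor p27, averaged 8.02, 9.03 and 8.58 on arrays 1, 2 and 3 over its 2 probe sets. The antioxidant enzyme genes Sod2 and Cat were at 6.83, 7.63 and 7.56 and at 8.36, 7.60 and 8.48. Sod2 was thus low on array 1 and Cat on array 2. Bcl2l11, the gene of the pro-apoptotic BIM, was below the limit on every array at 4.99, 5.18 and 5.72. In all, 12 of the targets missed the limit on at least 1 array. Pck1, G6pc, Igfbp1, Fbxo32 and Trim63, known as FOXO targets mainly in liver or muscle and named after their values were seen, were among them. So were Bcl2l11, Bcl6, Fasl and Il7r, and the misses were not confined to liver or muscle targets.

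Because FOXO proteins bind a short core motif, the members' promoters were searched for its letters, GTAAACA, on both strands. Of the 38 genes 33 had a promoter in the RefSeq table (assembly GRCm38.p6, 250 bases before to 50 after each start site), and 4 of these held the motif (12.1%), beside 4.05% of 27025 genes. Genes with several start sites offer more sequence, and the difference was not tested. The 4 were Pik3cg, Akt1, Mapkap1 and Stk11, of which Stk11 holds it after its start site. The windows of the other 3 are shown because they hold the motif in genes of this pathway. Each runs along the strand of the gene, 5′ to 3′, with the motif or its reverse complement in capitals.
Pik3cg, chr12:32208536-32208582, minus strand, motif 92 bases before the start: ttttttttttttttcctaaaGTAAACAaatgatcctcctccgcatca
Akt1, chr12:112675019-112675065, minus strand, motif 161 bases before the start: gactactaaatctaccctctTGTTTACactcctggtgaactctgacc
Mapkap1, chr2:34406652-34406698, plus strand, motif 99 bases before 1 start and 179 before another: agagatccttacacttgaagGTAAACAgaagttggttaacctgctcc

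All 4 genes with the motif were above the background range, as were 27 of the 37 measured genes. On arrays 1, 2 and 3 they did not share an order, with Pik3cg, Akt1 and Mapkap1 highest on array 1 and Stk11 on array 3. In the FOXO target list 5 of 23 genes with a promoter held the motif (21.7%), namely Bcl2l11, Sesn1, Txnip, Bbc3 and Trim63, beside 4.05% of all genes. That list holds genes already known as FOXO targets, so a raised share can follow from how it was chosen. The difference was not tested. Other motifs were searched in the same windows. The E-box CACGTG was found for 2 of the 33 members (6.06%) and 8.09% of all genes, and the CRE TGACGTCA for 0 of 33 and 2.03%. These letters are a description of the sequence, not of binding.

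Upstream of PI3K, 13 of 17 measured receptors and adaptors (76.5%) were above the range, beside 36.8% of all genes. Kit, the stem cell factor receptor that was part of the sort, was at 10.28, 9.92 and 9.85 on arrays 1, 2 and 3. The insulin and IGF1 receptor genes Insr and Igf1r were at 7.99 ± 0.12 and 7.69 ± 0.18, and Tek, the angiopoietin receptor, at 6.37 ± 0.08 (SD, n = 3). The 4 not above it on all arrays were Irs1 at 4.87 ± 0.21, Gab3 at 5.39 ± 0.16, Shc1 at 6.39 ± 0.53 and Igf2r at 6.24 ± 0.33 (SD, n = 3). Irs1, a docking protein of the insulin receptor, and Gab3 were below the limit on all 3 arrays. Irs2, the paralogue of Irs1, was above the range at 6.30 ± 0.15 (SD, n = 3).

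In the other PI3K classes 4 of 7 genes (57.1%) were above the range, beside 36.8% of all genes. Pik3c3, which encodes VPS34, the class III enzyme of autophagy and endosomes, was at 7.26, 7.61 and 7.14 on arrays 1, 2 and 3. Its regulatory partner Pik3r4 was at 6.29, 5.99 and 6.19, just below the limit on array 1 and just above it on array 2. The class II genes Pik3c2a and Pik3c2b were above the range at 6.94 ± 0.22 and 6.47 ± 0.20, and Pik3c2g was below it on every array at 4.33 ± 0.19 (SD, n = 3). Pik3ip1, which encodes an inhibitor of p110, was above the range at 7.46 ± 0.46, and Pik3r6 (p84, an alternative partner of p110 gamma) passed on array 3 alone at 5.92 ± 0.08.

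**Figure D4:**
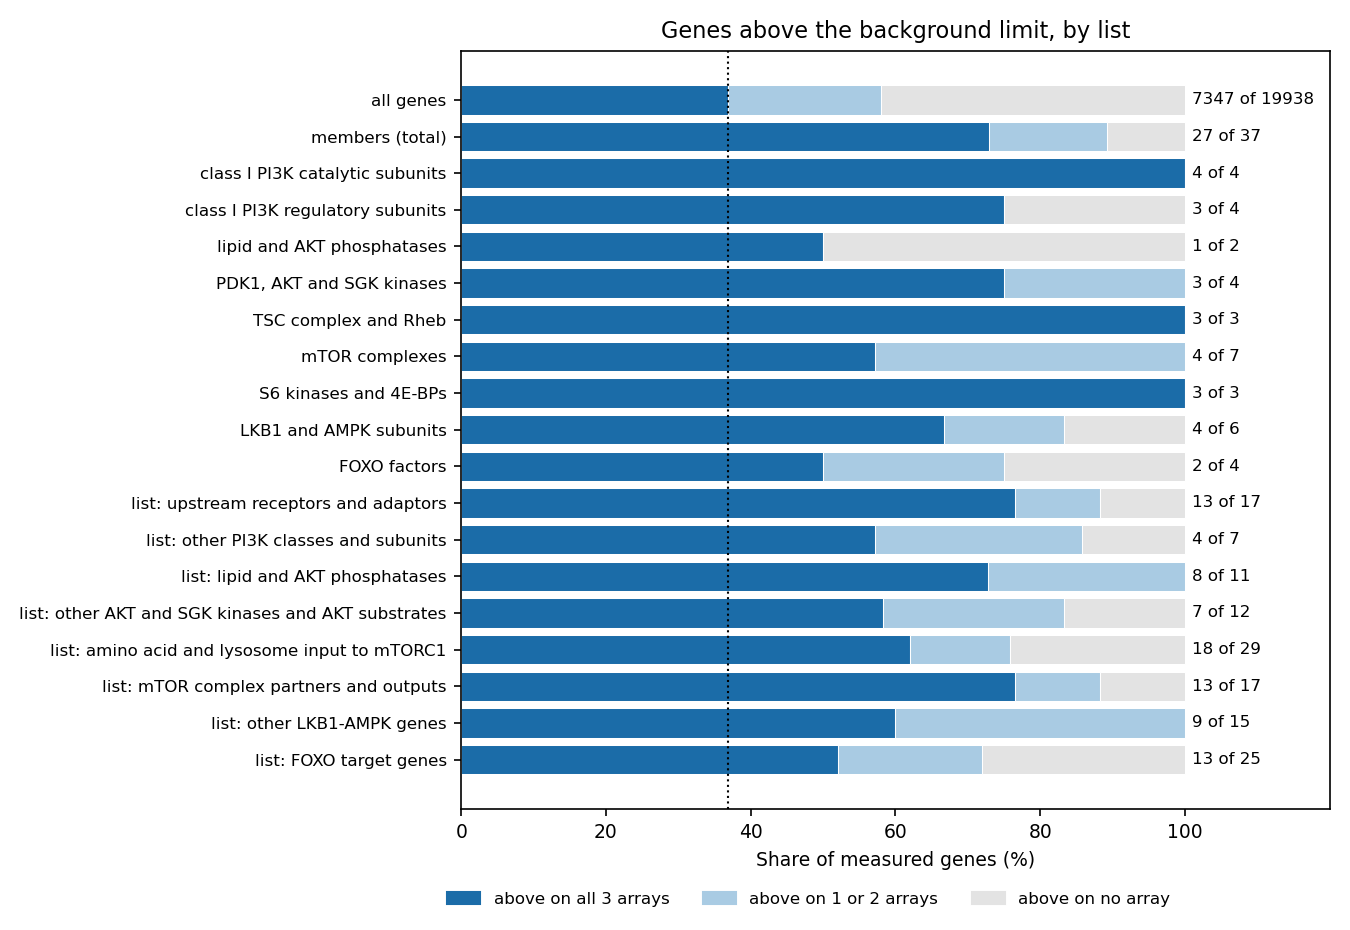
Share of measured genes above the background limit on all 3 arrays (dark), on 1 or 2 arrays (light) and on none (grey), for all genes, the 37 members, their role groups and the other pathway lists, with the count on all arrays at the right. The dotted line marks the 36.8% of all genes, and every list shown lies above it.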

How the data were processed

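The authors deposited 1 table of intensities for 3 arrays. Per the submitters' processing notes they used Affymetrix Expression Console with RMA, which equalises brightness between arrays run together. Its version and the set of arrays it was run on were not given in the sources used here. Values ran from 2.82 to 18384, so they were read as linear and log2 was taken, whereas the plan had assumed log2 values. Of 35554 probe sets, 21789 named 1 gene, 1621 named several and were left out, and 12144 were unlisted. Through Entrez IDs 21698 matched a RefSeq gene, with 0 symbols changed. Probe sets of a gene were averaged, giving 19938 genes. The spread of each gene was tested with limma 3.58.1 in R 4.3.3 (robust trend, 2 residual and 4.34 prior degrees of freedom, threshold 0.05), and the test was checked on simulated data of 19938 genes. All members are named. Of each other pathway list, the side of the limit with 5 or fewer genes is named, or else the first 4 measured genes. In the list of receptors and adaptors the first 4 measured genes are named as well. Irs2 and the PP2A genes are named besides, with their values known. Members and lists were chosen with earlier results of these data known. Alternatives were the brightest probe set, a 99th percentile limit, quantile normalisation, log2(value + 16), a limit on the mean, other variance fits and leaving out each array.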

Additional observations from a re-analysis of the deposited data

How the results depend on the processing

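The count of members above the background range stayed at 27 with the brightest probe set, quantile normalisation, log2(value + 16) and without array 2 or array 3. It was 29 without array 1 and with a limit on the mean over arrays, where Prkab2 and Foxo1 were added. The share of all genes also rose there, to 46.9% and 48.3%. With the 99th percentile limit the count of members was 11 (29.7%), beside 17.4% of all genes. That of the other pathway genes went from 83 of 131 to 47 (35.9%). The call of 0 varying members held under all 8 alternatives of that test, but each of these also called 0 of all genes. The agreement thus shows nothing particular to the members. The median level of the members moved from 6.70 to 6.91 with log2(value + 16), which raises dim genes by construction. With it the mean level of 18 of the 37 members moved by more than the member's SD, and of 0 with the brightest probe set, quantile normalisation or an array left out. No paired analysis was possible because the labels give 1 group. Signals near the background limit, as for Akt1, Mtor and Rptor, limit what these 3 arrays can show.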

Other observations

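Genes that carry amino acid and lysosome signals to mTOR complex 1 were above the background range for 18 of 29 measured genes (62.1%). The share of all genes was 36.8%. Of the Rag GTPases that hold mTOR at the lysosome, Rraga was at 7.50, 8.76 and 7.28 log2 on arrays 1, 2 and 3, while Rragb at 6.08 ± 0.07, Rragc at 6.17 ± 0.39 and Rragd at 4.83 ± 0.23 (SD, n = 3) were not above it on all arrays. Over all the other pathway lists 10 of 131 genes (7.63%) had arrays over 1 log2 apart, beside 10.5% of all genes. Among them, named after their values were seen, were Rraga, with array 2 high, and Lamtor5, a subunit of the lysosomal Ragulator, at 7.36, 7.13 and 8.45. Ddit4, which encodes the stress-induced mTOR complex 1 inhibitor REDD1, was at 7.74, 6.45 and 7.06. Gadd45a, a stress response gene counted among FOXO targets, was at 7.25, 8.34 and 6.86. None of these passed the variance test (limma, smallest adjusted p = 0.920 over the 131 genes).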
